A study of Mus musculus with 4 samples.

Results

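Tbr1/Lmx1a cells made up 281 of the 12546 cells kept from 23371 deposited barcodes of the embryonic mouse cerebellum. They were chosen on their own counts of unique molecular identifiers (UMIs, the tags that count captured mRNA molecules). A cell needed at least 1 UMI of Tbr1 or Lmx1a, at least 2 UMIs of Tbr1, Lmx1a and Calb2 together, and at most 1 UMI over 6 cell cycle genes (Mki67, Top2a, Cenpf, Ube2c, Cdk1 and Birc5). The levels of Tbr1, Lmx1a and Calb2, and every difference between the chosen cells and the rest, therefore follow from the choice and are given as a description with no test. The study sorted tdTomato-positive cells from E14.5 cerebella and sequenced them with the 10x Genomics 3′ kit, to ask what the Engrailed factors do in medial excitatory cerebellar nuclei neurons. Control embryos carried Atoh1-Cre/+ and the R26LSL-tdT/+ reporter. En1/2 conditional knockout (CKO) embryos carried the same Cre and reporter together with En1lox/lox and En2lox/lox, which the control embryos did not carry. Each group had 2 libraries, each from pooled animals, so that p-values measure the spread between pools. The Atoh1-Cre driver acts in the Atoh1 lineage, and cells outside it keep their En genes and are not the target of the sort. Some kept barcodes still carried RNA of other cells, such as the haemoglobin-rich barcode described below.

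Excitatory cerebellar neurons descend from the rhombic lip, a germinal zone that expresses the transcription factor Atoh1. Neurons of the cerebellar nuclei, the output of the cerebellum, leave it early, while granule cells and unipolar brush cells follow. Tbr1, a T-box factor, and Lmx1a, a LIM homeodomain factor, mark the medial nucleus, and Meis2 marks excitatory nuclei neurons more widely. Lmx1a and Calb2, which encodes the calcium-binding protein calretinin, are shared with unipolar brush cells, whose hallmark is the T-box factor Eomes. En1 and En2 encode homeodomain repressors of the cerebellar field.

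The sequence just upstream of a RefSeq start site is shown for the pair of genes that defines the cells. It is shown because homeodomain proteins, the class to which En1, En2 and Lmx1a belong, bind an AT-rich core. The 250 bases before each RefSeq start (GRCm38.p6, + strand) were searched for TAATTA, a core that reads the same on both strands and that is in capitals below. The Tbr1 window lies at chr2:61804203-61804452 and the Lmx1a window at chr1:167689308-167689557. Both windows lie inside the genes as GENCODE M21 annotates them, which begin at chr2:61802930 and chr1:167689237.
Tbr1: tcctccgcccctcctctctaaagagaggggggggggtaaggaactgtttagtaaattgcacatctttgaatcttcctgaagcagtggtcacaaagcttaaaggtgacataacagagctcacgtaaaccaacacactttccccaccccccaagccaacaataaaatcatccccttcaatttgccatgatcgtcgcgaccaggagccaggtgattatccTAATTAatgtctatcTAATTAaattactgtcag
Lmx1a: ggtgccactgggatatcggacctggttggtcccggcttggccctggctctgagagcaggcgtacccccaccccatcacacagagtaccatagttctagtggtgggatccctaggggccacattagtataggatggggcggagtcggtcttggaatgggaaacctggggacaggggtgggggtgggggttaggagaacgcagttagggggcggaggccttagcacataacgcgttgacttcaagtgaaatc
The Tbr1 window held 2 copies, the first at base 218, and the Lmx1a window held none. Of all 32851 such windows, 4.84% held the core. Of the 5 marker genes and the 10 genes called below, 8 had a window in the table, and Tbr1 was the gene among them with the core. These letters are a description of the windows, and no binding was measured.

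The libraries differed in depth and cell quality, and these values bear on every result below. The median depth of Tbr1/Lmx1a cells was 3427, 3007, 3953 and 3999 UMIs, in the order control replicate 1, control replicate 2, CKO replicate 1, CKO replicate 2. The other kept cells held 2718, 2088, 5479 and 5632 UMIs. Intact cells (4000 UMIs or more, of which no more than 5% mitochondrial) gave 28.5% and 23.5% of all UMIs of Tbr1/Lmx1a cells in control libraries, against 74.8% and 76.9% in mutant libraries. Preparation and genotype cannot be told apart, because no label names a batch. The 5 deepest of these cells gave 36.6%, 9.19%, 33.9% and 45.3% of the UMIs of their libraries, so that a few cells weigh heavily in every sum. 1 barcode of control replicate 2 that met the rule carried 7175 haemoglobin UMIs among 8971, while the next highest carried 7. No barcode of a Tbr1/Lmx1a cell was shared between libraries.

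Tbr1 and Lmx1a were found together in 109 of the 281 cells (38.8%). Tbr1 without Lmx1a was found in 77 cells (27.4%) and Lmx1a without Tbr1 in 95 (33.8%). Calb2 was present in 142 (50.5%), and 41 held all 3 genes. These shares are set by few molecules: 124 cells sat exactly at the threshold of 2 UMIs and 157 above it. A further 531 non-cycling cells just missed it with 1 UMI. The neurofilament gene Nefm, which the rule did not use, stood at 969, 1391, 1626 and 1338 counts scaled to 1000000 UMIs (CPM, with no further scaling) in the cells at the threshold, in the order control 1, control 2, CKO 1, CKO 2. It stood at 1422, 2696, 3339 and 2214 CPM in the cells above the threshold and at 628, 1120, 672 and 703 CPM in the cells just outside. The level of Nefm in each library thus followed the number of rule UMIs.

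The other markers of medial nuclei neurons are described beside 3 sets of kept cells. These were 3054 non-cycling cells with at least 2 UMIs of Meis2 (Meis2 cells), 239 non-cycling cells with at least 2 UMIs of Eomes (Eomes cells), and all 12265 other cells. Summed over the Tbr1/Lmx1a cells of each library, Nefm stood at 1190, 2185, 2915 and 1656 CPM, against 390, 651, 438 and 396 CPM in Meis2 cells and 203, 579, 281 and 174 CPM in all other cells. Nxph4, which encodes a secreted ligand of neurexins, stood at 244, 362, 119 and 143 CPM, against 101, 223, 42.0 and 92.9 CPM in Meis2 cells. Slc17a6, the vesicular glutamate transporter of these neurons, stood at 244, 243, 181 and 143 CPM, against 285, 341, 213 and 152 CPM in Meis2 cells. Nefm and Nxph4 were thus higher than in Meis2 cells in each of the 4 libraries, and Slc17a6 was lower. Nefm and Nxph4 were listed as markers with earlier results of these data known, so their levels are no independent check of identity. Meis2 itself was detected in 216 of the cells (76.9%), 168 of them with at least 2 UMIs.

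**Figure D1:**
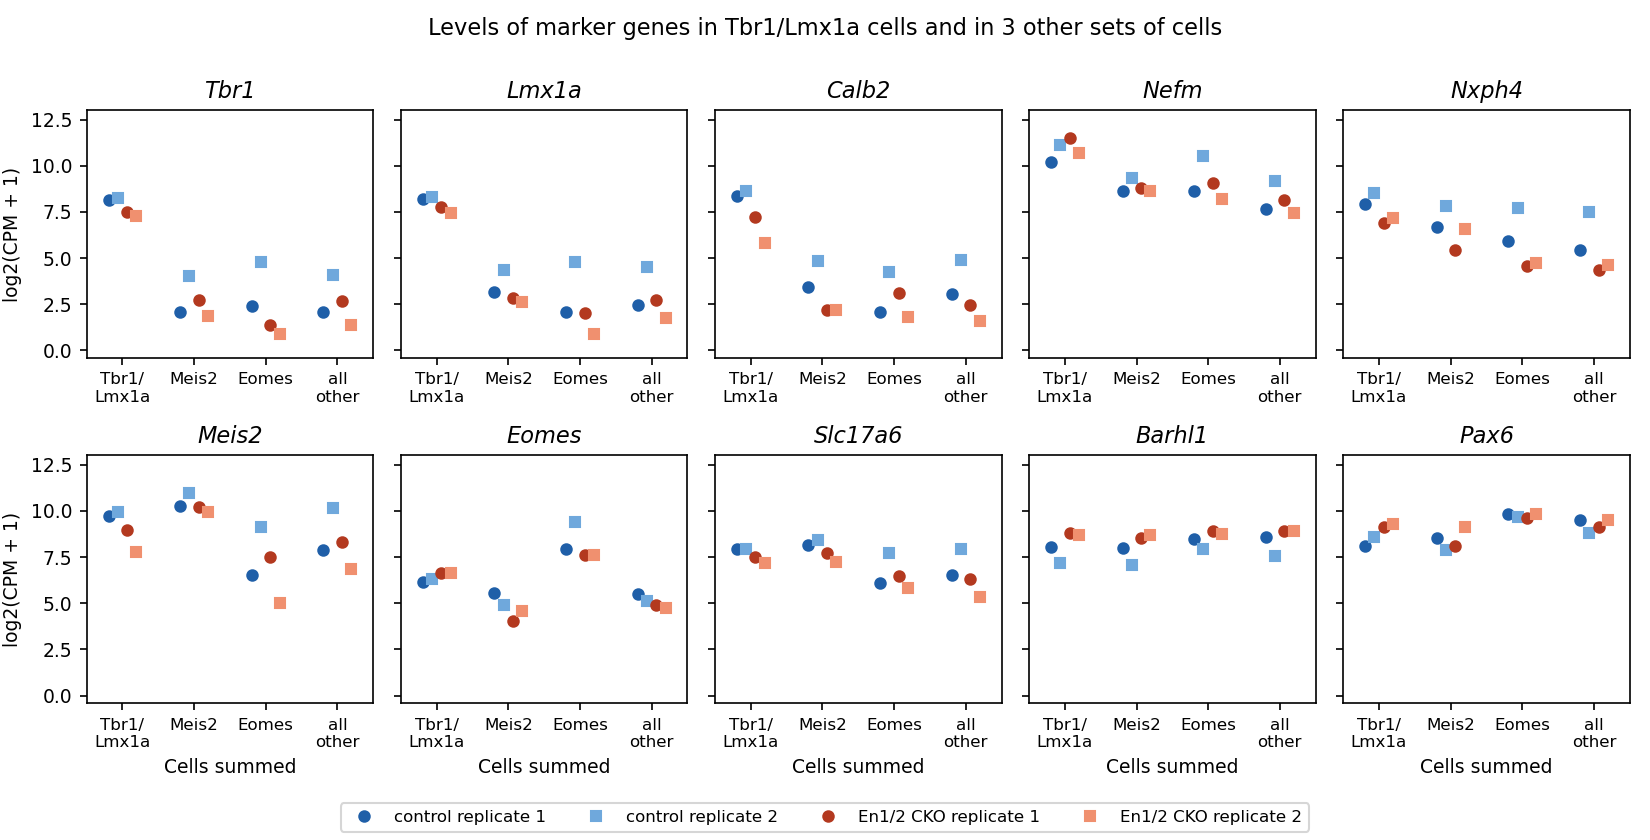
Levels of 10 marker genes, as log2(CPM + 1) on the vertical axis, summed over the Tbr1/Lmx1a, Meis2, Eomes and all other kept cells of each library (1 point per library and set of cells, no error bars). Tbr1, Lmx1a and Calb2 chose the cells in the leftmost column of each panel. Nefm and Nxph4 did not, but were listed as markers with earlier results of these data known. They lie above the Meis2 cells of the same library in all 4 libraries.

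The label of medial nuclei neurons may not hold for every cell. Eomes, the unipolar brush cell gene, was detected in 67 of the 281 cells (23.8%), in 29.4% of those with both Tbr1 and Lmx1a, in 11.7% of those with Tbr1 alone and in 27.4% of those with Lmx1a alone. Its share per library was 28.1%, 16.8%, 39.1% and 23.3%, against 10.3%, 6.75%, 7.19% and 8.88% of Meis2 cells and 13.7%, 7.55%, 16.7% and 13.7% of all other cells. The share lay above that of Meis2 cells and of all other cells in each library, at median depths of 2827, 2317, 3498 and 2781 UMIs in Meis2 cells. It rests on few molecules: 9 of 9, 19 of 26, 12 of 25 and 1 of 7 of these Eomes-positive Tbr1/Lmx1a cells held a single Eomes UMI. Otx2, a rhombic lip factor that unipolar brush cells also express, stood at 5.57 to 23.1 CPM, and Sln, another gene on the unipolar brush cell list, was at 0 in all libraries. Among other cell types, 8 of 11 markers of GABAergic neurons, all 6 of roof plate and choroid plexus and all 4 of mesenchyme were at 0 in every library, where 3 UMIs would be 5.11 to 23.6 CPM. Granule lineage markers summed to 2561 to 4160 CPM, against 2211 to 3903 CPM in Meis2 cells. The cells are called by their rule genes below for these reasons.

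Beyond the markers, 36 of 3397 genes with at least 50 CPM (1.06%) stood at least 2-fold higher in Tbr1/Lmx1a cells than in all other cells in each of the 4 libraries. The neurofilament genes led them, with Nefl at 1300, 2802, 3546 and 1656 CPM against 214, 784, 384 and 201 CPM. Genes of excitability and secretion followed: Gria3, an AMPA receptor subunit, at 205, 228, 51.1 and 96.8 CPM against 26.6, 55.3, 15.6 and 19.4 CPM, and the secretory granule genes Scg2 and Pcsk2. The ryanodine receptor Ryr2, the muscarinic receptor Chrm3, the protocadherin Pcdh7, the kinase Mast4 and the scaffold Akap12 were in the same group. The 39 genes at least 2-fold lower in every library (1.15%) were led by genes of cell division such as Cenpa, Rrm2, Pclaf, Nusap1 and Pcna, which is what a rule against cycling cells selects. Against Meis2 cells alone 20 of 3390 genes (0.59%) were at least 2-fold higher in every library. Nefl, Nefm, Mast4, Pcdh9, Pcdh7, Ryr2, Gria3 and Tmem178 led them.

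13 of the 3390 genes (0.383%) were at least 2-fold lower than in Meis2 cells in every library, and they include transcription factors. Lhx9, a LIM homeodomain factor, stood at 110, 173, 92.0 and 32.3 CPM against 279, 516, 520 and 202 CPM. Pax5 stood at 102, 70.6, 35.8 and 13.8 CPM against 361, 310, 304 and 225 CPM. Zfhx3, a zinc finger homeodomain factor, stood at 142, 132, 13.6 and 23.1 CPM against 437, 506, 243 and 136 CPM. The tyrosine hydroxylase gene Th, the proteoglycan gene Vcan and the peptide-amidating enzyme gene Pam were lower too. These differences come from the contrast that chose the cells and were not tested.

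Eomes cells outside the rule differed from Tbr1/Lmx1a cells in another way. Snhg11, a long non-coding RNA of neurons, stood at 1576, 531, 301 and 659 CPM in Tbr1/Lmx1a cells and at 13.1, 62.8, 41.7 and 6.73 CPM in Eomes cells. The adhesion gene Chl1 stood at 410, 98.4, 78.3 and 111 CPM against 7.62, 26.9, 18.5 and 6.73 CPM. Ccnd2, a cyclin of dividing progenitors, went the other way, at 134, 61.3, 175 and 434 CPM against 563, 170, 743 and 1449 CPM. In all, 26 of 3265 genes (0.796%) were at least 2-fold higher and 7 (0.214%) at least 2-fold lower in each library.

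Among the Tbr1/Lmx1a cells themselves, Snhg11 and Chl1 were lower in each library in cells with an Eomes UMI, though not 2-fold in control replicate 1. In cells with an Eomes UMI, Snhg11 stood at 1003, 219, 41.9 and 19.0 CPM, and in cells without one at 1784, 615, 1008 and 1262 CPM. Chl1 stood at 295, 35.1, 21 and 0 CPM with Eomes and at 451, 115, 234 and 215 CPM without. Nefm was not lower with Eomes in every library, at 1180, 2850, 2895 and 2188 CPM with Eomes and 1193, 2007, 2972 and 1155 CPM without. Pcdh15, a protocadherin, was the gene besides Eomes that was at least 2-fold higher with Eomes in every library (2 of 3300 genes, 0.0606%), at 147, 132, 51.2 and 76.1 CPM against 53.7, 44.8, 25.3 and 26.9 CPM. Chd5, a chromatin remodeller of neurons, was the 1 gene at least 2-fold lower (0.0303%). The gap in Snhg11 was widest in the CKO libraries, where the cells with Eomes were also far deeper, at a median of 15582 and 13509 UMIs against 2712 and 2291 UMIs without Eomes. In the controls these medians were 3645 and 3800 UMIs against 3007 and 2850 UMIs. Eomes-positive cells gave 26.7% and 21.2% of the summed UMIs of Tbr1/Lmx1a cells of the control libraries, and 73.1% and 48.5% of those of the mutant libraries. The part of this shift in the genotype comparison was not tested, and the main results are given without Eomes-positive cells too.

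The cells were also divided by Tbr1 and by Lmx1a. Tbr1 itself was the 1 of 3187 genes (0.0314%) at least 2-fold higher in every library in cells with Tbr1 than in cells without, and Lmx1a itself the 1 of 3058 (0.0327%) in cells with Lmx1a than in cells without. A count of 0 genes was at least 2-fold lower in either division. Neurod6, a basic helix-loop-helix factor, leaned to cells with Lmx1a (157, 187, 130 and 148 CPM against 0, 105, 94.1 and 49.0 CPM). The cells without Lmx1a numbered 9, 49, 12 and 7, so the 0 in control replicate 1 rests on few cells.

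The first comparison of the genotypes asks whether the mutants kept these cells. Tbr1/Lmx1a cells were 32 of 2911 kept cells in control replicate 1 (1.10%, 95% Wilson interval 0.780 to 1.55%) and 155 of 3931 in control replicate 2 (3.94%, 3.38 to 4.6%). They were 64 of 2007 in CKO replicate 1 (3.19%, 2.51 to 4.05%) and 30 of 3697 in CKO replicate 2 (0.811%, 0.569 to 1.16%). The intervals cover counting error only. Each group thus had a library near 1% and a library above 3%, and the groups overlapped. The mean was 2.52 ± 2.01% in the controls and 2.00 ± 1.68% in the CKO (SD, n = 2 each), a difference of −0.521 percentage points (exact permutation test, two-sided, p = 0.667, where 4 libraries allow no p below 0.333). With each cell thinned to 2000 UMIs the shares were 0.863%, 3.5%, 1.96% and 0.423%, and with 1000 UMIs they were 0.412%, 1.09%, 0.947% and 0.216%. The difference changed sign to 0.154 points over non-cycling cells, to 0.901 points without control replicate 2 and to 0.668 points without CKO replicate 2. No loss or gain of the cells was detectable with these libraries.

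**Figure D2:**
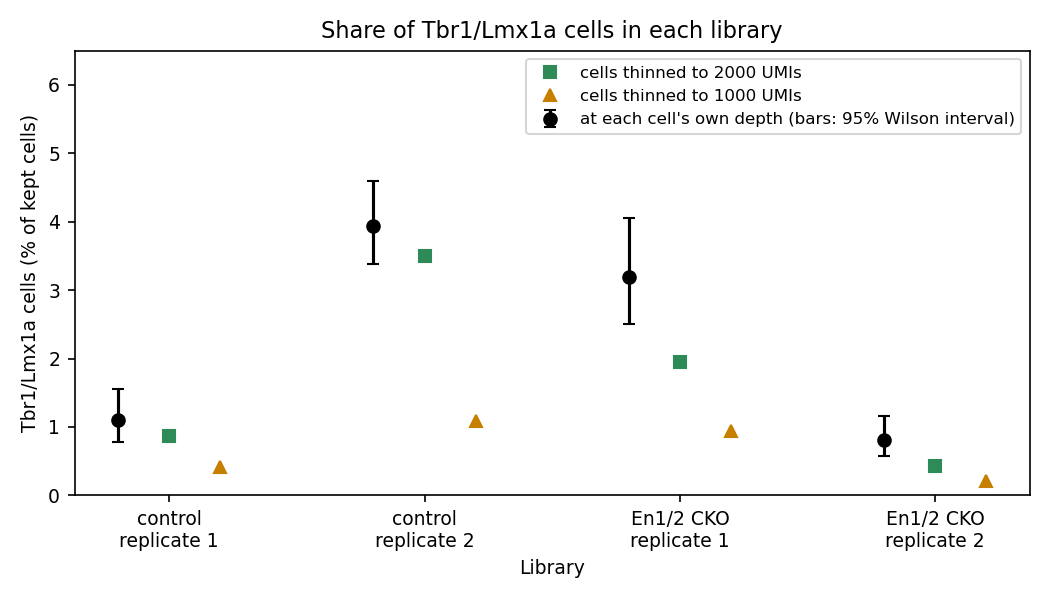
Share of kept cells that met the rule, in percent on the vertical axis, for the 4 libraries on the horizontal axis, at each cell's own depth (circles with 95% Wilson intervals) and after thinning to 2000 or 1000 UMIs (cells with fewer UMIs left out). Control replicate 2 and CKO replicate 1 stand above the other library of their group at every depth, so that the groups overlap.

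Within the cells, the share with a Tbr1 UMI was 65.6%, 67.1%, 67.2% and 60%, and the groups overlapped. With cells thinned to 2000 UMIs it was 64.7%, 62.7%, 74.2% and 81.8%, with both CKO libraries above both controls, and the difference went from −2.77 to 14.3 percentage points. Tbr1 is a gene of the rule, and this share was not tested. The share with an Eomes UMI averaged 22.4 ± 8.03% in the controls and 31.2 ± 11.1% in the CKO (SD, n = 2 each; exact permutation test, two-sided, p = 0.667). Among intact cells it was 33.3% of 3 and 27.8% of 18 cells in the controls, against 85.7% of 21 and 63.6% of 11 cells in the CKO, where the groups did not overlap (exact permutation test, p = 0.333, the smallest possible). With every kept cell thinned to 2000 UMIs and the rule applied again, it was 5.88%, 9.33%, 9.68% and 9.09%, from 1 of 17, 7 of 75, 3 of 31 and 1 of 11 cells, and the groups overlapped. That is another set of cells than the intact ones, and the part of depth in the gap among intact cells was not tested. This share and that of Tbr1/Lmx1a cells among all kept cells were adjusted together as 2 tests. Their adjusted p (exact permutation test, Benjamini-Hochberg) was 0.667 for each. The tests of intact cells and of the Calb2 share given below were left out of this adjustment.

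The deleted genes were read first in the comparison of expression, from counts summed over Tbr1/Lmx1a cells and scaled by the trimmed mean of M values (TMM-scaled CPM, used from here on). En2 (chr5:28165694-28172166) stood at 254 and 114 CPM in the controls and at 25.5 and 15 CPM in the CKO libraries, or 31, 56, 14 and 3 UMIs. Both CKO libraries lay well below both controls. The log2 fold change was −2.82 (SE 0.47, adjusted p = 0.0430, edgeR quasi-likelihood F test with Benjamini-Hochberg adjustment over 6255 genes). En1 (chr1:120602418-120607992) stood at 368 and 234 CPM against 204 and 399 CPM, and the groups overlapped. The log2 fold change of En1 was 0.02 (SE 0.35, edgeR adjusted p = 0.995). It was −0.47 without Eomes-positive cells and −1.22 in intact cells. Reads of this kit come from the 3′ ends of mRNAs, and where in a gene they lie is not in the count tables, so a level of En1 RNA does not say whether the floxed part was removed.

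Of the 6255 genes tested in Tbr1/Lmx1a cells, 10 were called at an adjusted p under 0.05 (0.16%), 5 higher and 5 lower in the CKO (0.0799% each), and 877 had an unadjusted p under 0.05. DESeq2 called 116, with 4 of the 10 among them (Rpl29, Rpl10, Tpt1 and Pcdh17). Apart from En2, the genes called lower were Zfhx3, Negr1, Syt4 and Pcdh17. The genes called higher were S100a10, Ppp1r14c, Tpt1 and the ribosomal protein genes Rpl29 and Rpl10. All 10 kept their direction when the cells were thinned to at most 4000 UMIs, and the 9 that could be tested kept it without Eomes-positive cells, but 0 of them passed the threshold in either fit, with 195 and 113 genes at an unadjusted p under 0.05.

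Zfhx3 (chr8:107942644-108961630), a homeodomain zinc finger factor of maturing neurons, was at 147 and 144 CPM in the controls and at 14.6 and 25.0 CPM in the CKO. The controls were close to each other, and both CKO libraries lay far below. The means were 146 ± 2.20 and 19.8 ± 7.33 CPM (SD, n = 2 each), and the log2 fold change was −3.02 (SE 0.38, edgeR adjusted p = 0.0175). In control replicate 1, however, 15 of its 18 UMIs came from 1 cell, and without the deepest cell of each library Zfhx3 no longer passed the filter on low counts and was not tested. In control replicate 2 it was seen in 34 of 155 cells. Without Eomes-positive cells it was at 232, 208, 15.5 and 33.6 CPM, a log2 fold change of −3.19 (SE 0.52, edgeR adjusted p = 0.150). In Meis2 cells the fold change was −1.24 (SE 0.29, edgeR adjusted p = 0.121).

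The other genes called lower belong to adhesion and release. Pcdh17 (chr14:84443563-84539002), a protocadherin of axons, was at 647 and 469 CPM against 137 and 195 CPM. Negr1 (chr3:156561794-157316445), an adhesion protein of the IgLON family, was at 156 and 163 CPM against 23.7 and 44.9 CPM. Syt4, a synaptotagmin of vesicles, was at 147 and 225 CPM against 51.1 and 25.0 CPM. In each of the 3 genes both CKO libraries lay below both controls. Their log2 fold changes were −1.76 (SE 0.29), −2.39 (SE 0.36) and −2.21 (SE 0.36), with edgeR adjusted p of 0.0430, 0.0346 and 0.0430. Without Eomes-positive cells these were −1.51, −1.66 and −1.76, with adjusted p of 0.874, 0.874 and 0.955.

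Among the genes called higher, S100a10 (chr3:93555080-93564643), the partner of annexin A2, was at 0 and 14.2 CPM in the controls and at 299 and 145 CPM in the CKO. These levels rest on 0, 7, 164 and 29 UMIs, and those of CKO replicate 1 came from 20 cells. A count of 0 in control replicate 1 allows up to 23.6 CPM before TMM scaling. The log2 fold change was 4.35 (SE 0.56, edgeR adjusted p = 0.0175). The level was higher in Eomes-positive cells, at 345 and 200 CPM (unscaled) in the CKO libraries, than in those without Eomes, at 101 and 71.6 CPM, and it was 0 and 16.5 CPM in the control cells without Eomes.

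Ppp1r14c (chr10:3366057-3464975), an inhibitor of protein phosphatase 1, was at 40.9 and 73.1 CPM against 292 and 300 CPM (log2 fold change 2.20, SE 0.32, edgeR adjusted p = 0.0346). Without Eomes-positive cells the log2 fold change was 1.77 (SE 0.41, edgeR adjusted p = 0.874). Tpt1 (chr14:75845093-75848525), a translationally controlled growth protein, was at 1269 and 1201 CPM against 3168 and 3614 CPM. Its log2 fold change was 1.46 (SE 0.25, edgeR adjusted p = 0.0489), and 0.70 (SE 0.43, adjusted p = 0.998) without Eomes-positive cells. Rpl29 was at 205 and 71.1 CPM against 680 and 634 CPM and Rpl10 at 303 and 335 CPM against 1041 and 899 CPM, and reads of such genes can be shared with their many pseudogenes.

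**Figure D3:**
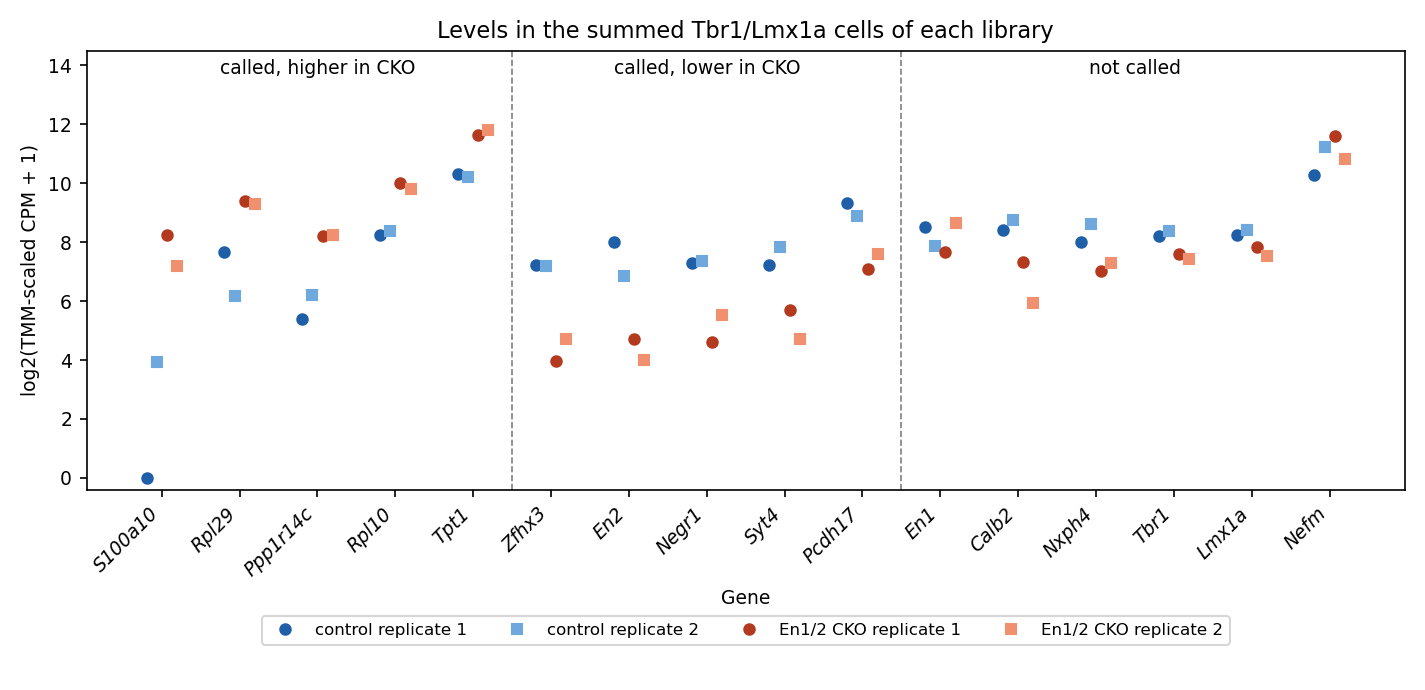
Levels of the 10 called genes and of En1 and the 5 marker genes, as log2(TMM-scaled CPM + 1), in the summed Tbr1/Lmx1a cells of each of the 4 libraries (1 point per library). The CKO points lie on 1 side of both control points for each called gene and for Calb2, Nxph4, Tbr1 and Lmx1a, while those of En1 and Nefm overlap with the controls.

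Genes with the smallest p among those not called were named too. The higher ones were Prelid1, a mitochondrial lipid carrier (65.5 and 65.0 CPM against 199 and 200 CPM, edgeR adjusted p = 0.0680), Spsb4, the transcriptional cofactor Lmo2, the actin-binding Tmsb4x and the nuclear factor Nfix. The lower ones were Vstm2l, the leucine-rich repeat protein Lrrn3 (507 and 504 CPM against 153 and 225 CPM, edgeR adjusted p = 0.0680) and the microRNA host RNA Mir100hg.

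**Figure D4:**
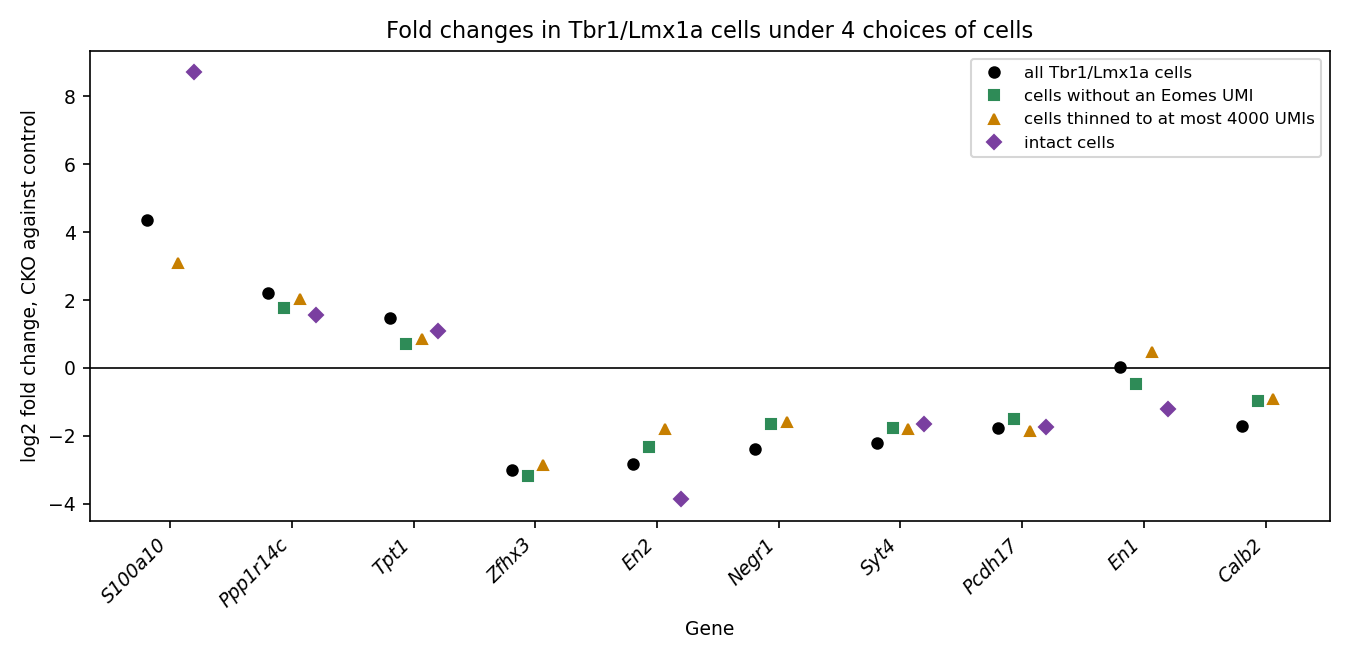
log2 fold changes of CKO against control on the vertical axis for the called genes other than ribosomal protein genes and for En1 and Calb2, with all Tbr1/Lmx1a cells, without Eomes-positive cells, with cells thinned to at most 4000 UMIs, and with intact cells (points missing where a gene was not tested, no error bars). The called genes keep their side of 0 in every fit shown, with En2 between −3.87 and −1.79, whereas En1 lies on both sides.

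Of the 5 marker genes of medial nuclei neurons, Tbr1, Lmx1a and Calb2 chose the cells, so their levels are a description and no p is given. Neither Nxph4 nor Nefm passed the threshold in edgeR (unadjusted p = 0.000995 and 0.240). Tbr1 (chr2:61802930-61814114) was at 295 and 329 CPM against 191 and 170 CPM, and Lmx1a (chr1:167689237-167848741) at 303 and 339 CPM against 228 and 185 CPM. The rule asks for a number of UMIs whatever the depth of a cell, and the depth of the summed cells differed between the groups. Its part in these levels was not tested. The log2 fold changes of Tbr1 and Lmx1a were −0.79 (SE 0.26) and −0.63 (SE 0.26), but −0.08 and −0.16 without Eomes-positive cells, where the groups overlapped. Nxph4 (chr10:127525473-127534559), which the rule did not use, was at 254 and 396 CPM against 128 and 155 CPM. Its log2 fold change was −1.28 (SE 0.30, edgeR adjusted p = 0.107), and −1.11 (SE 0.35, adjusted p = 0.998) without Eomes-positive cells, with both CKO libraries below both controls each time. Nefm was at 1236 and 2391 CPM against 3122 and 1792 CPM and overlapped.

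Calb2 (chr8:110137502-110168210) was at 344 and 431 CPM against 159 and 59.9 CPM, with a log2 fold change of −1.72 (SE 0.36), as a description. It is part of the rule, and was therefore read again in the 25, 105, 57 and 25 cells with at least 2 UMIs of Tbr1 and Lmx1a, which Calb2 did not help to choose. Among them 52.0% and 39.0% of control cells held a Calb2 UMI, against 29.8% and 8% of mutant cells. After thinning those with 2000 UMIs or more to 2000 UMIs these were 41.7%, 31.5%, 20.4% and 10.5%, from 10 of 24, 28 of 89, 10 of 49 and 2 of 19 cells. Both CKO libraries stayed below both controls after this thinning, at 15.5 ± 6.99% against 36.6 ± 7.22% (SD, n = 2 each, exact permutation test, two-sided, p = 0.333, the smallest that 2 libraries per group allow). The cells were picked at their own depth and not picked again after thinning, so the choice was not matched for depth. The part of depth in this gap was not tested. The counts of Calb2 in these cells gave a log2 fold change of −1.83 (SE 0.50, edgeR adjusted p = 0.144 over 5278 genes). Among all Tbr1/Lmx1a cells without Eomes, however, Calb2 was at 355 and 600 CPM against 357 and 134 CPM, and the groups overlapped.

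Genes were then grouped by role, and read against the 23.0% of all tested genes whose CKO libraries both lay above both controls and the 21.5% whose CKO libraries both lay below. Over all tested genes the median log2 fold change was −0.02. Transcription factors of excitatory nuclei neurons leaned to lower: 8 of 18 tested were lower without overlap, 3 were higher, and 1, Zfhx3, was called, with a median of −0.18. The neuronal factors Meis2 (892 and 1054 CPM against 531 and 235 CPM, log2 fold change −1.31, SE 0.33) and Ebf1 (729 and 1335 CPM against 511 and 374 CPM, −1.23, SE 0.31), each at an edgeR adjusted p of 0.125, and Ebf2 were among them. Nhlh1, Nhlh2 and Bcl11a, factors of young neurons, were the 3 higher ones. Without Eomes-positive cells 6 of 16 were lower and 1 was higher, against 15% and 14.7% of 2935 genes, and Meis2, Ebf1 and Ebf2 had log2 fold changes of −1.12, −0.93 and −1.18 (edgeR adjusted p = 0.998 each). The lean of these factors was thus present in both sets of cells.

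The granule lineage list ran the other way. Of 8 genes tested 4 were higher without overlap and 0 lower, with a median of 0.55 and 0 called (edgeR; 4 at an unadjusted p under 0.05). Pax6 was at 286 and 416 CPM against 606 and 669 CPM (log2 fold change 0.81, SE 0.26) and Barhl1, a homeodomain factor of granule cells, at 270 and 154 CPM against 471 and 444 CPM (1.21, SE 0.30). Without Eomes-positive cells 3 of 7 were higher and 0 lower. In Meis2 cells of the same libraries 4 of 9 were higher and 0 lower, where 24.6% of 11486 genes were higher.

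Synaptic and membrane genes leaned to lower in the mutant sums. Of 18 adhesion genes 11 were lower and 1 higher without overlap (median −0.54), of 19 ion channel genes 9 and 0 (median −0.56), of 10 genes of glutamate transmission 6 and 0 (median −0.55), of 23 genes of presynaptic release 11 and 3 (median −0.17) and of 27 axon guidance genes 10 and 4 (median −0.40). Pcdh17 and Syt4 were the called ones. Ncam1 was at 2554 and 2547 CPM against 1543 and 1423 CPM, Gria3 at 213 and 250 CPM against 54.7 and 105 CPM, and the Eph receptor Ephb1 at 115 and 124 CPM against 32.8 and 54.9 CPM, while Epha3 was higher (81.9 and 79.2 CPM against 268 and 155 CPM). These leanings did not hold without Eomes-positive cells. There 6 of 10 ion channel genes were higher and 0 lower (median 0.41), and of 13 adhesion genes 2 were higher and 1 lower (median 0.10). Of 8 glutamate genes 3 were higher and 2 lower, of 20 presynaptic genes 3 and 4, and of 20 axon guidance genes 5 and 3. With cells thinned to at most 4000 UMIs, 2 of 12 ion channel genes were higher and 0 lower, against 16.8% and 16.2% of 3414 genes. Of 14 adhesion genes 1 was higher and 4 lower there, and of 21 presynaptic genes 2 and 5. Of 10 glutamate genes 2 were higher and 1 lower, and of 24 axon guidance genes 6 and 3. In Meis2 cells 22 of 34 adhesion genes, 19 of 33 ion channel genes, 11 of 19 genes of glutamate transmission and 18 of 27 genes of presynaptic release were lower, against 23.8% of all genes.

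Among secreted synaptic organizers 2 of 4 tested genes, C1ql3 and Nxph4, were lower without overlap. C1ql3, a C1q-like protein of excitatory synapses, was at 458 and 345 CPM against 25.5 and 140 CPM (log2 fold change −2.55, SE 0.53, edgeR adjusted p = 0.0832). Without Eomes-positive cells it was at 559 and 495 CPM against 101 and 280 CPM (−1.52, SE 0.43, adjusted p = 0.955). In those cells C1ql3 and Nxph4 were lower without overlap too, of 3 tested genes. Neurofilament and growth cone genes did not lean, with 4 of 23 higher, 4 lower and a median of 0.05. Gap43, a growth cone protein, was the largest of the higher ones (1007 and 1428 CPM against 2364 and 2820 CPM, log2 fold change 1.07, SE 0.27, edgeR adjusted p = 0.125).

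Genes of RNA content leaned most evenly. Of 82 ribosomal protein genes 76 were higher without overlap and 0 lower, with 2 called and a median of 0.95. All 12 genes of the mitochondrial genome were lower, with 0 called by edgeR (12 at an unadjusted p under 0.05) and a median of −0.88. In Meis2 cells the same counts were 74 of 82 higher and 12 of 12 lower, so the lean was present there too. Without Eomes-positive cells 11 of 79 ribosomal protein genes were higher and 6 of 12 mitochondrial genes lower, against 14.7% and 15% of 2935 genes. The ribosomal protein count was thus near the share of all genes there, with a median of 0.26, and the mitochondrial median was −0.36. Dissociation stress genes were 2 higher and 2 lower of 9, and p53 and apoptosis genes 3 higher and 0 lower of 9 (median 0.32), with Bax at 123 and 183 CPM against 243 and 260 CPM and 0 called. In none of the 2 p53 genes that could be tested without Eomes-positive cells did the groups separate.

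**Figure D5:**
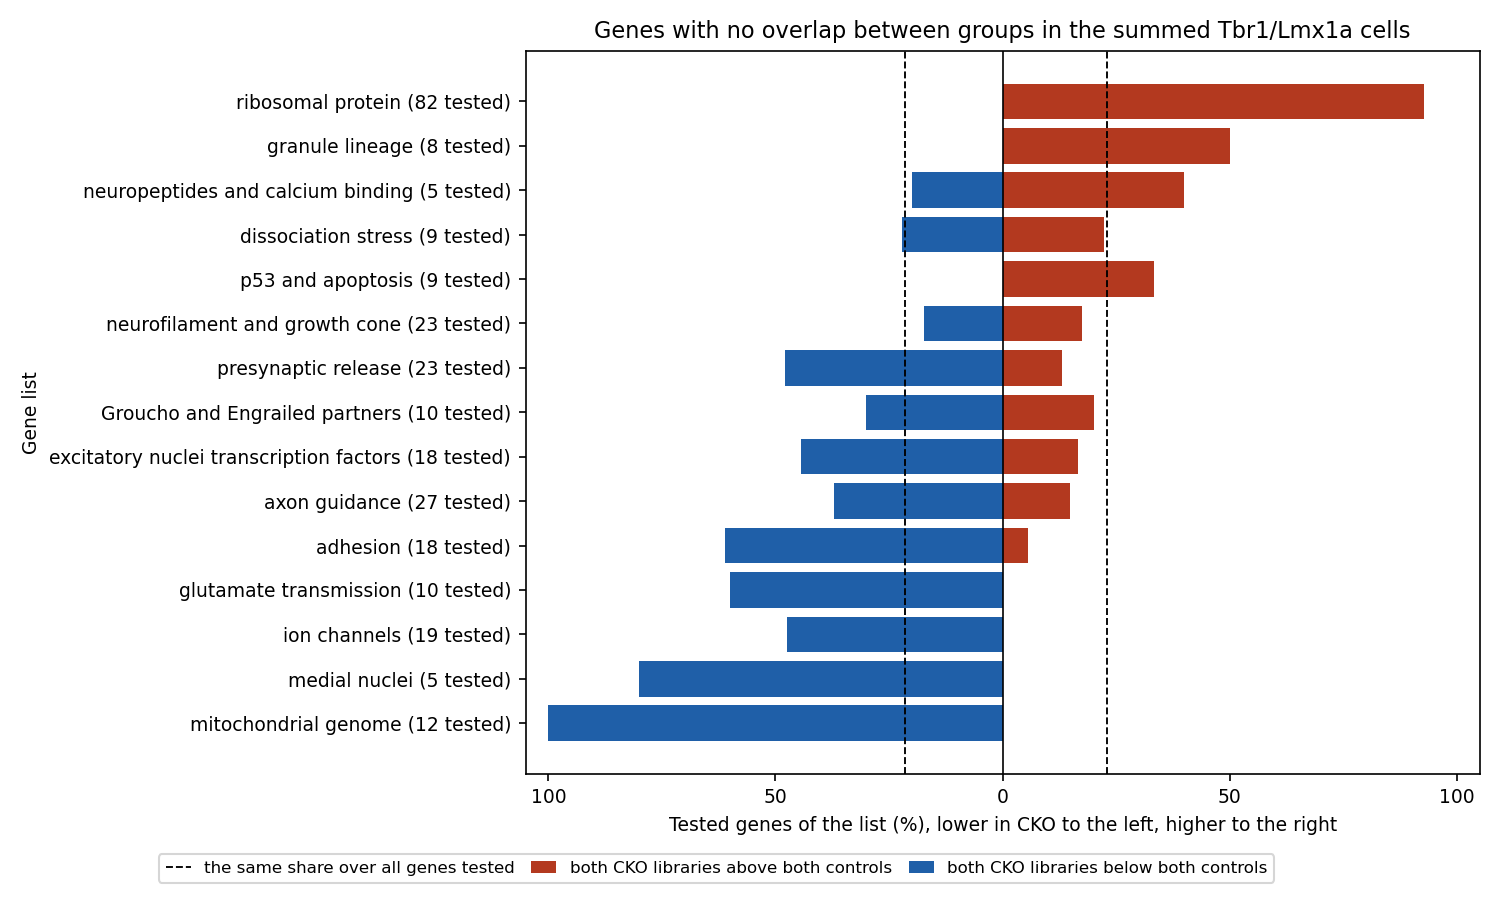
Share of the tested genes of each list with at least 5 tested genes (percent, horizontal axis) with both CKO libraries above both controls (right) or below both controls (left) in the summed Tbr1/Lmx1a cells, with dashed lines at the shares over all tested genes, 23.0% and 21.5%. Ribosomal protein genes and genes of the mitochondrial genome lie farthest out among these lists, and neurofilament and growth cone genes stay inside both lines. The medial nuclei list (4 lower of 5 tested) holds Tbr1, Lmx1a and Calb2, which chose the cells, so its bar is a description.

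The last comparison asked whether the deletion changed Tbr1/Lmx1a cells in another way than the Meis2 cells of the same libraries. The difference of the CKO effects was called for 6 of 10340 genes (0.058%), in a fit with the library as block, and DESeq2 called 0 (81 at an unadjusted p under 0.05). S100a10 had the larger CKO effect in Tbr1/Lmx1a cells, at 0, 13.8, 292 and 137 CPM there and 11.1, 16.4, 40.8 and 32.9 CPM in Meis2 cells (difference of log2 fold changes 3.09, SE 0.54, edgeR adjusted p = 0.00596). Bcl11b, a zinc finger factor of projection neurons, was at 22.4, 21.6, 85.5 and 23.7 CPM in Tbr1/Lmx1a cells, where only CKO replicate 1 was high, and at 65.2, 81.7, 46.9 and 32.4 CPM in Meis2 cells (2.43, SE 0.47, edgeR adjusted p = 0.0186). Neither gene was called without CKO replicate 1, without control replicate 2, without Eomes-positive cells or with Tbr1/Lmx1a cells thinned to at most 4000 UMIs. Dqx1, an RNA helicase gene, was called lower (−8.26), but 87 of its 88 UMIs in control replicate 1 came from 1 cell. The haemoglobin genes Hba-a1 and Hbb-y had 1514 and 3907 UMIs in control replicate 2, whose haemoglobin-rich barcode met the rule, and were not called without that barcode. The last of the 6, C1ql4, was at 0, 17, 2 and 0 UMIs. For En2, Nxph4 and Calb2 the log2 fold changes in Meis2 cells were −2.27 (SE 0.24), −1.24 (SE 0.43) and −2.44 (SE 0.53). The difference from Tbr1/Lmx1a cells was not called for En2 and Nxph4, and for the rule gene Calb2 these values are a description.

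Against all other kept cells the difference was called for 26 of 12975 genes (0.2%), mostly haemoglobin genes and genes of cell division, which the rule keeps low in Tbr1/Lmx1a cells, and DESeq2 called 1, Gja1. S100a10 (2.69, SE 0.55, edgeR adjusted p = 0.00118) and Bcl11b (2.37, SE 0.53, edgeR adjusted p = 0.00596) were among them again, from the same mutant and control sums. Neither was called here with DESeq2, with cells thinned to at most 4000 UMIs or without Eomes-positive cells, and Bcl11b was not called in intact cells. Plcb1, a phospholipase of G protein signalling, was at 34.8, 60.1, 108 and 90.1 CPM in Tbr1/Lmx1a cells and, in the other cells, at 33.1, 55.4, 32.6 and 22.3 CPM (1.73, SE 0.41, edgeR adjusted p = 0.0164). Within Tbr1/Lmx1a cells alone the log2 fold change of Plcb1 was 0.90 (SE 0.32, edgeR adjusted p = 0.250). The difference was not called with DESeq2, with doublets removed, in intact cells, with cells thinned to at most 4000 UMIs, without Eomes-positive cells, or without CKO replicate 1, CKO replicate 2 or control replicate 2. The gap junction gene Gja1 was lower, at 139, 34.9, 5.30 and 4.50 CPM in Tbr1/Lmx1a cells and 39.4, 12.5, 30.4 and 48.1 CPM in the other cells (−4.47, SE 0.66), from 20, 18, 3 and 1 UMIs.

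Of the lists of other cell types and smaller groups, unipolar brush cell genes were 1 higher and 2 lower of 4 tested in the CKO sums. The 2 lower ones were Lmx1a and Calb2, which chose the cells, so their count is a description. Cajal-Retzius genes were 2 higher of 2, and neuropeptide and calcium-binding genes 2 higher and 1 lower of 5. Groucho and Engrailed partner genes, which hold En2, were 2 higher and 3 lower of 10. All these counts compare CKO with control sums of Tbr1/Lmx1a cells, where 23.0% of all tested genes were higher and 21.5% lower.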

How the data were processed

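Dissociated, sorted cells of E14.5 cerebella were profiled in 2 control and 2 En1/2 CKO libraries, each of pooled animals. The deposited values are raw UMI counts per gene and barcode, made by the authors with Cell Ranger 5.0.0 on mm10, per the submitters' processing notes. Kept barcodes had 500 or more genes, 1000 or more UMIs, and no more than 10% of UMIs from mitochondrial genes. Doublets were not removed in the reported values; removing those marked by a simulation-based score was an alternative. The cells and gene lists were chosen with earlier results of these data known. Counts were summed over Tbr1/Lmx1a cells per library and fitted with edgeR 4.0.16 (filterByExpr, TMM, quasi-likelihood F test, limma 3.58.1, R 4.3.3), with Benjamini-Hochberg adjustment over all genes tested and a threshold of 0.05. The difference of CKO effects between sets of cells was an interaction term with library as block. Alternatives included DESeq2 1.42.0, no filter on low counts, intact cells, thinning, no Eomes-positive cells and leaving out each library. Cells are not replicates, and n is libraries. Named were the deleted and marker genes, up to 12 called genes each way with a mean of at least 10 CPM, those of smallest p up to 8 each way where fewer than 6 were called, up to 5 interaction genes each way, the leading described genes, and up to 4 examples a list. Genes named outside it (Rpl29, Rpl10, Hba-a1, Hbb-y and C1ql4) were chosen after their values were seen. Libraries of the same replicate number did not deviate together (correlation of deviations −0.094, 1 value for both pairs, because each group had 2 libraries). Whether they shared a litter or a preparation was not tested, and no label names it. Gene coordinates are from GENCODE M21 (GRCm38). Python 3.11.15, numpy 2.4.6, pandas 2.3.3, scipy 1.17.1, scikit-learn 1.9.0 and matplotlib 3.10.9 were used.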

Additional observations from a re-analysis of the deposited data

Results flagged for a closer look

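Each result here is a difference between the CKO effect in Tbr1/Lmx1a cells and that in other cells of the same libraries, past an adjusted p of 0.05 in edgeR's quasi-likelihood test of the interaction term. Against Meis2 cells the difference of log2 fold changes was 3.09 for S100a10, 2.43 for Bcl11b and −8.26 for Dqx1. Against all other kept cells it was 2.69 for S100a10, 2.37 for Bcl11b, 1.73 for Plcb1, −4.47 for Gja1 and −7.46 for Dqx1. It was −11.48 for Ccnb2, −5.53 for Ccnb1 and −4.63 for Tpx2, which are genes of cell division that the choice of non-cycling cells keeps low. Ccnb2 had 2, 7, 0 and 0 UMIs in Tbr1/Lmx1a cells, Ccnb1 1, 16, 1 and 0, and Tpx2 2, 5, 1 and 0 (controls first), so these fitted values depend on the prior count and bound nothing. Of the UMIs of Dqx1 in control replicate 1, 87 of 88 were in 1 cell.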

How the results depend on the processing

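Each group had 2 libraries, and a few deep cells gave much of each sum. The 10 genes called in Tbr1/Lmx1a cells became 116 with DESeq2, 100 with no filter on low counts and 67 without the deepest cell of each library. They became 72 with the replicate block, which kept all 10, while no label says that the numbers pair the libraries. They became 0 in intact cells, without Eomes-positive cells, with cells thinned to at most 4000 UMIs and with cells thinned to 1000 UMIs. Leaving out 1 library gave 28 to 122, and the other settings gave 10 or 11. The causes were not tested. For differences from Meis2 cells the 6 genes became 0 with DESeq2, 2 with cells thinned to at most 4000 UMIs, 13 with doublets removed, 10 in intact cells, 11 with no filter, 10 without the deepest cells and 3 to 22 with 1 library left out. For differences from all other cells the 26 genes became 1 with DESeq2, 12 with cells thinned to at most 4000 UMIs, 10 in intact cells, 16 without Eomes-positive cells and 3 to 204 with 1 library left out. The 36 genes at least 2-fold higher than in all other cells became 39 to 123 with 1 library left out, the highest without control replicate 2. The difference in share of −0.521 points turned to 0.154 over non-cycling cells, and ranged from −1.94 to 0.901 with 1 library left out. The difference in the share with Tbr1 was 14.3 points after thinning to 2000 UMIs and 5.82 after thinning to 1000. Of the single-gene values under an alternative, 468 kept direction and side of the threshold, 81 newly passed it, 29 no longer passed it and 37 changed sign, all 37 for genes not called. En1 was −1.22 in intact cells, −0.47 without Eomes-positive cells and −0.00021 with the replicate block. In cells without Eomes, thinned to at most 4000 or to 1000 UMIs, in that order, Pcdh7 was 0.15, 0.062 and 0.49, Mgst3 −0.031, −0.040 and −0.074, and Stmn4 0.23, 0.21 and 0.29. Nefm was −0.014 with cells thinned to 1000 UMIs, Scg2 0.29 in intact cells, and Stmn4 0.045 in cells with Tbr1. With doublets removed Tmem178 was −0.025 and Ryr2 −0.023. With at least 2 UMIs of Tbr1 and Lmx1a Tmem178 was −0.074, Ryr2 −0.11 and Akap12 −0.15. Akap12 was −0.0082 without the deepest cells and −0.027 with the replicate block. With 1 library left out the log2 fold change ranged from −0.47 to 0.47 for En1, −0.018 to 1.05 for Nefm, −0.30 to 1.11 for Nefl, −0.45 to 0.61 for Tmem178, −0.64 to 0.65 for Ryr2, −0.37 to 0.28 for Akap12, −0.042 to 0.95 for Mgst3, −0.33 to 0.098 for Stmn4 and −0.12 to 0.73 for Pcna. The settings chosen after seeing the data were those without the haemoglobin-rich barcode, without the deepest cells, thinning to at most 4000 UMIs, and at least 2 UMIs of Tbr1 and Lmx1a.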
